A study of Mus musculus with 22 samples.

Results

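The mRNAs of the 5 NF-κB subunit genes, Nfkb1, Nfkb2, Rel, Rela and Relb, were followed in a murine leukemia line with and without a functional Nfkbie gene. The genes were taken by symbol from the mouse GENCODE annotation, and the counts of every listed transcript assigned to them were summed per gene. They are 5 of the 17023 genes and 33 of the 62492 transcripts in the table, with 10 transcripts of Nfkb1, 7 of Nfkb2, 1 of Rel, 7 of Rela and 8 of Relb. Together they held between 0.0394% and 0.0907% of the counts of a library.

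The study made 22 RNA-seq libraries from TCL1-355 TKO cells, a leukemia B-cell line from the Eμ-TCL1 mouse model of CLL that carries biallelic lesions of tumor suppressor genes, CDKN2A and CDKN2B among them. Nfkbie was disrupted in the NFKBIE-ko cells by Cas9 with a guide against exon 2, whereas the NFKBIE-wt cells were mock transfected, so all groups share the parental line and its other lesions. For the in vivo groups, cells of each genotype were propagated in C57BL/6 mice for 21 days, injected into the peritoneum of further C57BL/6 mice and recovered after 10 days from the spleen (4 NFKBIE-wt and 4 NFKBIE-ko libraries) and from the peritoneal cavity, PC (4 and 4), and the in vitro groups had 3 libraries of each genotype, from cells of the spleens of 3 mice that were kept in culture separately for 2 weeks. Each genotype was propagated separately, so that genotype and propagation cannot be told apart. The study's wording is read here as a donor mouse for each genotype. On that reading the in vivo libraries of a genotype replicate the recipients and not the propagation. Their p-values between genotypes then do not cover differences between propagations. The cells recovered from mice were not purified before RNA extraction, so that RNA of host cells is part of the in vivo libraries. Which of the edited lines gave which library is not stated in the sources used here. The labels name the tissue as blood for all samples and open the description of the NFKBIE-ko samples with the name of the wt cells. The titles were used for genotype and compartment.

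NF-κB transcription factors are dimers of these 5 proteins. Rela (p65), Rel (c-Rel) and Relb carry transactivation domains, whereas Nfkb1 and Nfkb2 encode the precursors p105 and p100, which are processed to the DNA-binding subunits p50 and p52 and which also hold other subunits in the cytoplasm. In the canonical pathway the IKKβ and NEMO complex marks IκB proteins for degradation and frees dimers of p50 with Rela or c-Rel. In the non-canonical pathway NIK and IKKα drive the processing of p100 to p52, which pairs with Relb. IκBε, the product of Nfkbie, is one of the IκB proteins and is best known for retaining Rela and c-Rel dimers in B cells. Several subunit genes are themselves transcribed under NF-κB control, as background known from other work.

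The sequences below show where Nfkbie was cut and the DNA in front of the start sites of the 2 members that differed between the genotypes. The guide, printed with the PAM in capitals, matched GRCm39 at 1 place, chromosome 17 from 45869436 to 45869455 on the plus strand, inside exon 2 of the canonical Nfkbie transcript.
guide: agtgattcacgaagccccgtCGG
Nfkb2 lies on chromosome 19 from 46292759 to 46303812 (plus strand) and its main transcripts begin at 2 places. Nfkb2-201, the more abundant, begins at the outer start, and Nfkb2-202 begins inside the locus. Nfkb1 lies on chromosome 3 from 135290264 to 135397742 (minus strand), Rel on chromosome 11 from 23686847 to 23721264 (minus strand), Rela on chromosome 19 from 5687493 to 5698161 (plus strand) and Relb on chromosome 7 from 19339017 to 19363425 (minus strand). For each start the 250 bases before it were read from GRCm39, 5′ to 3′ along the strand of the gene. They are chr19:46292509-46292758 for Nfkb2-201, chr19:46293861-46294110 for Nfkb2-202 and chr3:135397743-135397992 (minus strand) for Nfkb1-201. Capitals mark a match, on either strand, to the NF-κB consensus of 10 letters that is usually called the κB motif.
Nfkb2-201: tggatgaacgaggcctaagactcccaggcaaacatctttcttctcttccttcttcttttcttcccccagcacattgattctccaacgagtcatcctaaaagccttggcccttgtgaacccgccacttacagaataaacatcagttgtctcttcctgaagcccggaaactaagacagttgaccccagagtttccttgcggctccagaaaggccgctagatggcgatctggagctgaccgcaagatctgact
Nfkb2-202: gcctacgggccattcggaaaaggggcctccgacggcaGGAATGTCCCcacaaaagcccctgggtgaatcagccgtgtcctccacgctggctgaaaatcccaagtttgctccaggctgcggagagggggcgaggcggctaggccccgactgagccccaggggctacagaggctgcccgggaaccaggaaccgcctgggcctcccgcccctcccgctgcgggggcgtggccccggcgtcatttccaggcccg
Nfkb1-201: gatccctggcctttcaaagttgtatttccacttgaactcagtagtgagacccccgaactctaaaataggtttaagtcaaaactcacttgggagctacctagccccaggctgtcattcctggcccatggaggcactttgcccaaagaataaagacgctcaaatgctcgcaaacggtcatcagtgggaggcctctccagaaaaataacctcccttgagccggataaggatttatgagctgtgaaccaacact
The window of Nfkb2-202 held 1 match, GGGACATTCC on the opposite strand, 213 to 204 bases before the start. The windows of Nfkb2-201 and Nfkb1-201 held none, and neither did those of Rel-201 and Rela-201. The window before Relb-201 and Relb-202, which share a start, held 1 match, GGGGTTTTCC, 37 to 28 bases before it. Of 12913 windows of this length before the canonical start of protein-coding genes in the table, 8.53% held at least 1 match. A match describes letters and does not show binding.

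Before any member was compared, 2 libraries were set apart because they went against their compartment label. The library labelled NFKBIE-wt spleen replicate 4 had a summed level of 8 granulocyte markers of 0.155 CPM (counts scaled to library size) and of 8 erythroid markers of 6.88 CPM. The other 3 wt spleens had 58.8 to 369 and 282 to 2039 CPM. In replicate 4 the genes listed at 0 included the granulocyte genes S100a8, S100a9, Elane, Camp and Ngp and the erythroid genes Hba-a2, Hbb-bs and Alas2. Replicate 3 of the cultures labelled NFKBIE-wt had 189 CPM of the granulocyte and 1436 CPM of the erythroid markers, where the other 5 cultures had 0 to 3.62 and 12 to 25.5 CPM. All 7 B-lineage markers were detected in both. Both libraries were kept under their labels, and the main results for the members that rest on them are given with and without them.

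**Figure D1:**
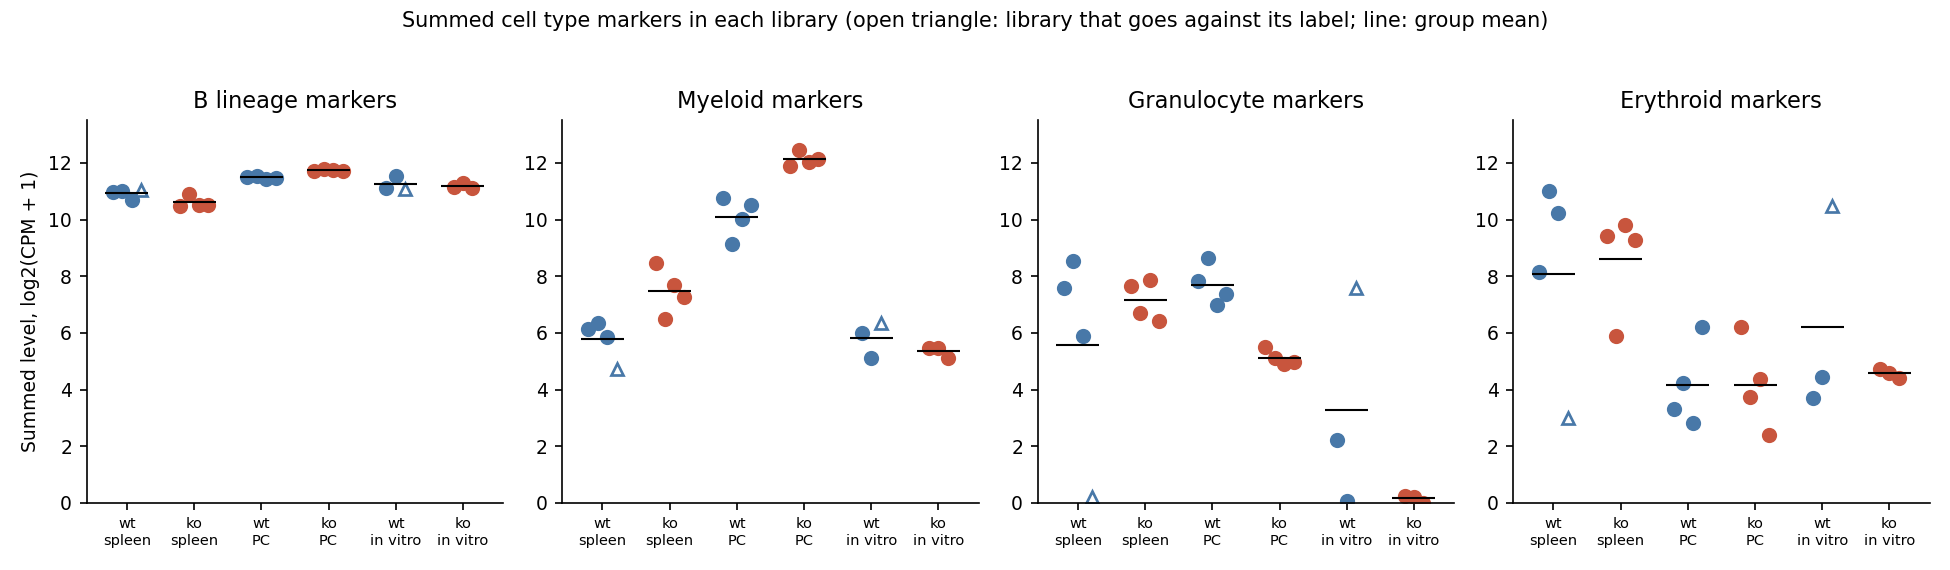
Summed level of B-lineage, myeloid, granulocyte and erythroid marker genes in each of the 22 libraries, as log2(CPM + 1), by group; each point is a library (NFKBIE-wt blue, NFKBIE-ko red), a line is the group mean and open triangles are the libraries labelled wt spleen replicate 4 and wt in vitro replicate 3. The triangle in the wt spleen is the only spleen library near 0 for the granulocyte markers, and the triangle in vitro is the only culture with erythroid markers above 25.5 CPM.

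Myeloid markers moved with genotype in the animals. The summed level of 10 myeloid markers was 563 to 1735 CPM in the wt PC and 3817 to 5653 CPM in the ko PC, and 25.6 to 80.0 CPM in the wt (56.8 to 80.0 CPM without replicate 4) and 89.5 to 353 CPM in the ko spleens. The 7 B-lineage markers reached 2791 to 2992 CPM in the wt and 3348 to 3550 CPM in the ko PC. In the spleens they reached 1667 to 2125 CPM in the wt (at most 2049.9 CPM without replicate 4) and 1429 to 1917 CPM in the ko. Granulocyte markers were lower in the ko PC, at 28.6 to 44.5 CPM against 125 to 396 CPM in wt. The 9 T-cell markers overlapped between the genotypes in the PC (193 to 254 CPM in wt and 233 to 310.4 CPM in ko) and in the spleen (33.7 to 123 CPM in wt, 75.02 to 123 CPM without replicate 4, and 97.7 to 178 CPM in ko). The part of these cells in the results below was not tested, and in bulk RNA fewer cells of a type and less RNA per cell cannot be told apart.

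The edited gene was checked next. Nfkbie stood at 67.3, 81.4, 76.6 and 91.2 CPM in the wt PC and at 64.9, 47.2, 55.9 and 47.5 CPM in the ko PC, without overlap, a log2 fold change of -0.56 ± 0.12 (SE; edgeR quasi-likelihood test, Benjamini-Hochberg adjusted p = 0.00375). In the spleen it stood at 72.7, 70.9, 76.9 and 124 CPM in wt and at 120.3, 54.2, 109 and 112 CPM in ko libraries, so that 3 of the 4 libraries labelled ko were above the first 3 wt libraries (log2 fold change 0.19 ± 0.27, edgeR adjusted p = 0.729, and 0.43 ± 0.24, adjusted p = 0.294, without replicate 4). In vitro it stood at 117, 141 and 54.4 CPM in wt and 56.0, 59.9 and 48.2 CPM in ko (log2 fold change -0.93 ± 0.33, edgeR adjusted p = 0.516, and -1.23 ± 0.13, adjusted p = 0.0902, without wt replicate 3). The mRNA level therefore went with the label in the PC and did not in the spleen. Counts over a whole transcript do not show the edited bases, and the ko spleen libraries are called by their labels.

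Per length, Nfkb1, Nfkb2 and Rela mRNAs were the abundant subunits and Rel and Relb the scarce ones in every library. In TPM, computed from the counts and annotated lengths as the share of transcripts after scaling by length, the mean over the 22 libraries was 91.6 ± 21.8 (SD) for Nfkb1, 73.3 ± 34.9 for Nfkb2, 62.7 ± 11.9 for Rela, 24.3 ± 9.90 for Rel and 23.3 ± 6.39 for Relb. Nfkb1 ranked highest in 18 libraries, and the lowest place was held by Relb in 13 and by Rel in 9. Nfkb2 and Rela changed places with the group. In the wt PC Rela stood at 60.2 ± 8.61 TPM (SD, n = 4) and Nfkb2 at 32.7 ± 4.71 TPM, with Rela the higher in 4 of 4 libraries. In the ko cultures Nfkb2 stood at 126 ± 1.33 TPM (n = 3) and Rela at 56.9 ± 0.965 TPM. In the ko PC the 2 genes could not be separated, at 58.8 ± 8.88 and 57.1 ± 2.67 TPM. Relb was above Rel in all 8 PC libraries and below it in all 8 spleen libraries.

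**Figure D2:**
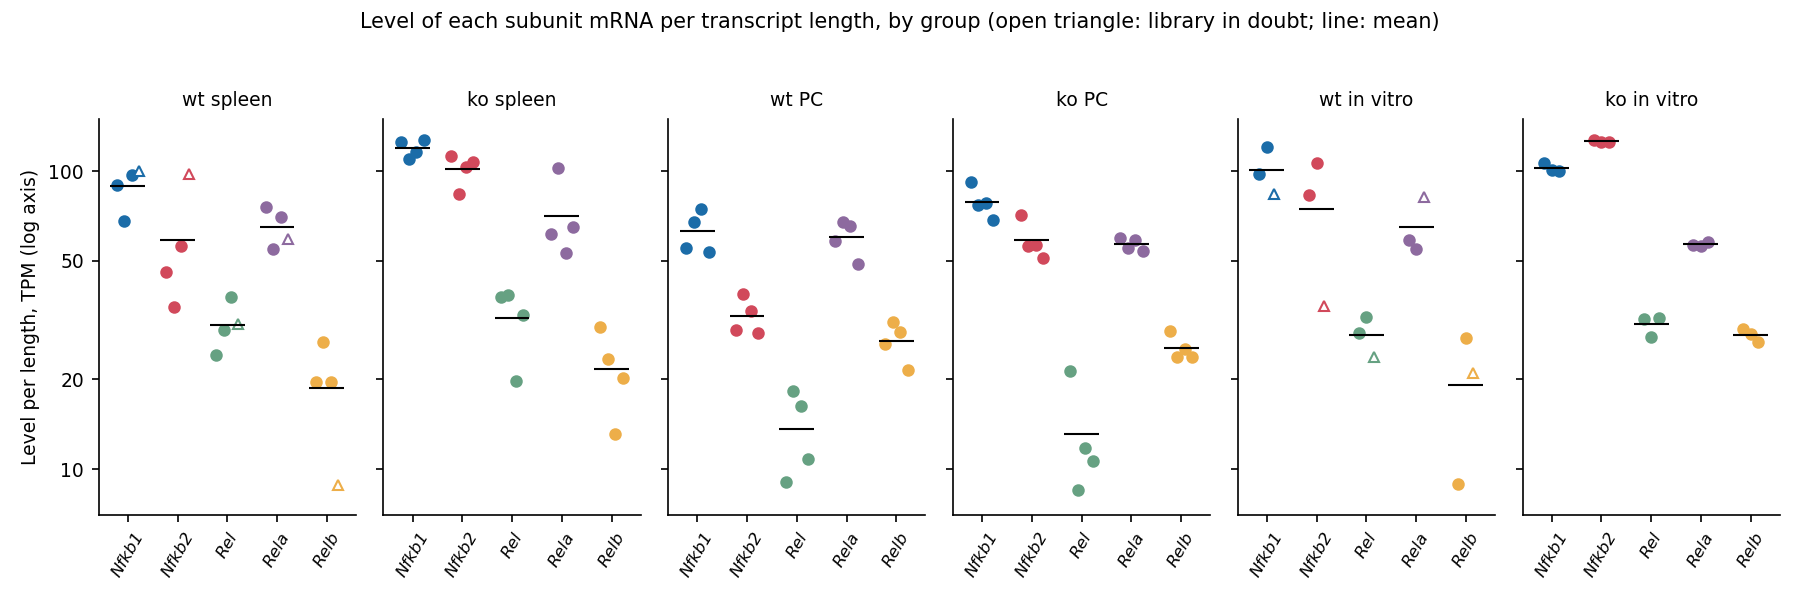
Level per transcript length of the 5 subunit mRNAs (TPM, log axis) in the 6 groups; each point is a library, a line is the group mean and open triangles are the 2 libraries in doubt. The means of Nfkb1, Nfkb2 and Rela lie above those of Rel and Relb in each panel, and Nfkb2 runs from 32.7 TPM in the wt PC to 126 TPM in the ko cultures.

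The main question of the design is what the loss of IκBε changes in each compartment. In the PC the precursor genes Nfkb2 and Nfkb1 were higher in the NFKBIE-ko than in the NFKBIE-wt libraries. None of the 3 genes of the transactivating subunits passed the test in either direction. These libraries also hold RNA of host cells, whose part in the difference was not tested. Nfkb2, which encodes p100 and p52, stood at 108, 132, 111 and 119 CPM in the wt and at 247, 206, 216 and 195 CPM in the ko libraries. Every ko library was above every wt library. The mean was 118 ± 10.5 CPM in wt and 216 ± 22.2 CPM in ko (SD, n = 4), a log2 fold change of 0.87 ± 0.09 or 1.82-fold (edgeR quasi-likelihood test, Benjamini-Hochberg adjusted p = 3.4e-05). Psd, which overlaps Nfkb2 on the other strand, did not exceed 1.94 CPM in any library.
Nfkb1, which encodes p105 and p50, stood at 120.5, 136, 142 and 122 CPM in the wt and at 194, 168, 170.2 and 159 CPM in the ko PC. Here too the genotypes did not overlap. The log2 fold change was 0.40 ± 0.08 or 1.32-fold (edgeR adjusted p = 0.00265). The genes called higher were 22.5% of the 12642 tested in the PC, and 20.9% were called lower, so that 2 of 5 members higher has to be read against a compartment in which calls were common.

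Rela, the p65 subunit, stood at 75.7, 86.4, 82.2 and 78.3 CPM in the wt and at 75.4, 68.0, 77.9 and 73.0 CPM in the ko PC. The ranges overlapped, and the log2 fold change was -0.14 ± 0.07 (edgeR adjusted p = 0.112). Rel, which encodes c-Rel, varied more between libraries of a group than between genotypes, with 42.7 to 78.6 CPM in wt and 38.7 to 93.0 CPM in ko (log2 fold change -0.06 ± 0.29, edgeR adjusted p = 0.898). Relb, the partner of p52, had 46.7 to 54.0 CPM in wt and 44.7 to 51.5 CPM in ko (log2 fold change -0.06 ± 0.07, edgeR adjusted p = 0.511).

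In the spleen the same 2 genes had the largest values among the members, but neither was called with all libraries. Nfkb2 stood at 153, 134, 169 and 304 CPM in the wt and at 367, 269, 379.7 and 368 CPM in the ko spleens. The library labelled wt replicate 4 lay inside the ko range and the other 3 wt libraries below it. The log2 fold change was 0.86 ± 0.26 (edgeR adjusted p = 0.0922) with all libraries and 1.19 ± 0.15 or 2.28-fold (adjusted p = 0.00223) without replicate 4. Nfkb1 stood at 183, 146, 185 and 196 CPM in the wt and at 256, 214, 242 and 266 CPM in the ko spleens, with all ko libraries above all wt libraries. Its log2 fold change was 0.46 ± 0.12 (edgeR adjusted p = 0.0672) with all libraries, 0.52 (adjusted p = 0.0462) without ko replicate 2 and 0.51 ± 0.13 or 1.43-fold (adjusted p = 0.0347) without replicate 4. At an unadjusted p below 0.05 edgeR had both genes, and DESeq2 called both. The shares of all genes at that threshold and with DESeq2 are not given here, so neither count is set against a background. Of the 12219 genes tested in the spleen 2.32% were called higher and 3.16% lower, and without replicate 4 these shares were 5.47% and 6.69%.

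The transactivating subunits showed no such separation in the spleen. Rel had 105 to 148 CPM in the wt and 90.5 to 163 CPM in the ko libraries (log2 fold change 0.09 ± 0.19, edgeR adjusted p = 0.824, and 0.08 ± 0.21, adjusted p = 0.861, without replicate 4). Rela had 67.5 to 79.7 CPM in wt and 72.8 to 97.3 CPM in ko (log2 fold change 0.09 ± 0.12, edgeR adjusted p = 0.70, and 0.05 ± 0.13, adjusted p = 0.863, without replicate 4). Relb was the most scattered member, with 33.0, 51.9, 30.7 and 13.3 CPM in the wt and 52.5, 38.9, 23 and 35.9 CPM in the ko spleens. Its value turned from 0.22 ± 0.38 to -0.04 ± 0.28 on the log2 scale when wt replicate 4 was left out (edgeR adjusted p = 0.782 and 0.956).

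In vitro, where the cells were grown without a host, no member passed the test. Nfkb2 stood at 261, 349 and 112 CPM in the wt and at 407, 402 and 396 CPM in the ko cultures. All 3 ko cultures were above all wt cultures, and they differed from each other far less than the wt cultures did (SD 5.44 against 119.6 CPM). Without wt replicate 3, in doubt for its compartment, the wt SD was 62.3 CPM (n = 2). The log2 fold change was 0.74 ± 0.37 (edgeR adjusted p = 0.537) and 0.40 ± 0.14 (adjusted p = 0.449) without wt replicate 3. Nfkb1 stood at 193, 241 and 157 CPM in the wt and at 207, 206 and 199 CPM in the ko cultures, which lay within the wt range (log2 fold change 0.05 ± 0.15, edgeR adjusted p = 0.896, and -0.08 ± 0.11 without replicate 3). Relb stood at 14.6, 46.6 and 34.8 CPM in wt and 48.6, 50.9 and 45.3 CPM in ko cultures (log2 fold change 0.58 ± 0.39, edgeR adjusted p = 0.581, and 0.66 ± 0.48, adjusted p = 0.669, without replicate 3). The low value is that of wt replicate 1. For Rel the log2 fold change was 0.11 ± 0.13 and for Rela -0.14 ± 0.13, with ranges that overlapped, and both were 0.01 (SE 0.11 and 0.06) without replicate 3. Only 0.0427% of the 11722 genes tested in vitro were called higher and 0.00% lower, and 0.0591% were called higher and 0.0169% lower without replicate 3. These counts rested on single cultures and on the tool, since edgeR called 317 higher and 468 lower of 12036 without wt replicate 2, and DESeq2 called 92 higher and 132 lower of 13239 with all cultures. Among the 5 members, edgeR had 0 at an unadjusted p below 0.05 with all cultures, and DESeq2 called 0.

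**Figure D3:**
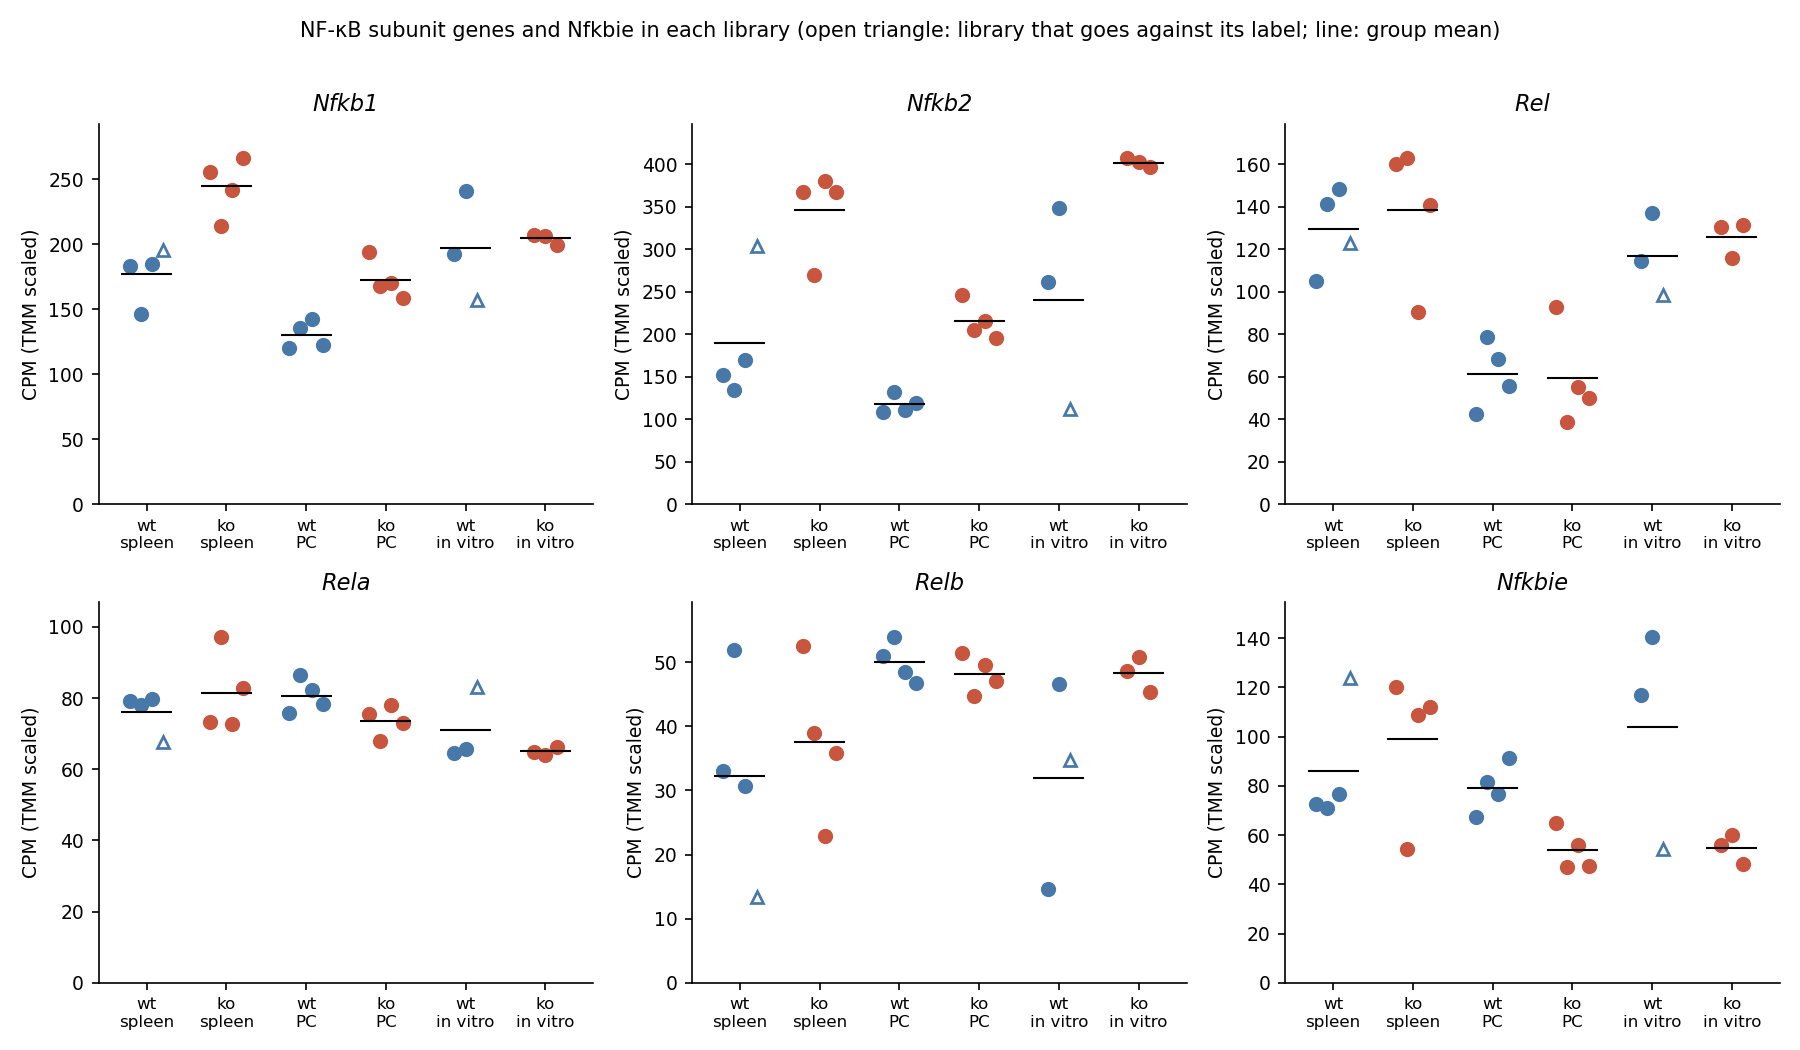
Level of the 5 subunit genes and of Nfkbie in each library (CPM scaled with TMM, linear axis from 0), by group, with NFKBIE-wt in blue and NFKBIE-ko in red; lines are group means and open triangles the 2 libraries that went against their compartment label. Nfkb2 separates the genotypes in the PC (108 to 132 against 195 to 247 CPM), and the Rel mean of both PC groups (59.3 and 61.3 CPM) is below the 117 to 139 CPM of the other groups.

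**Figure D4:**
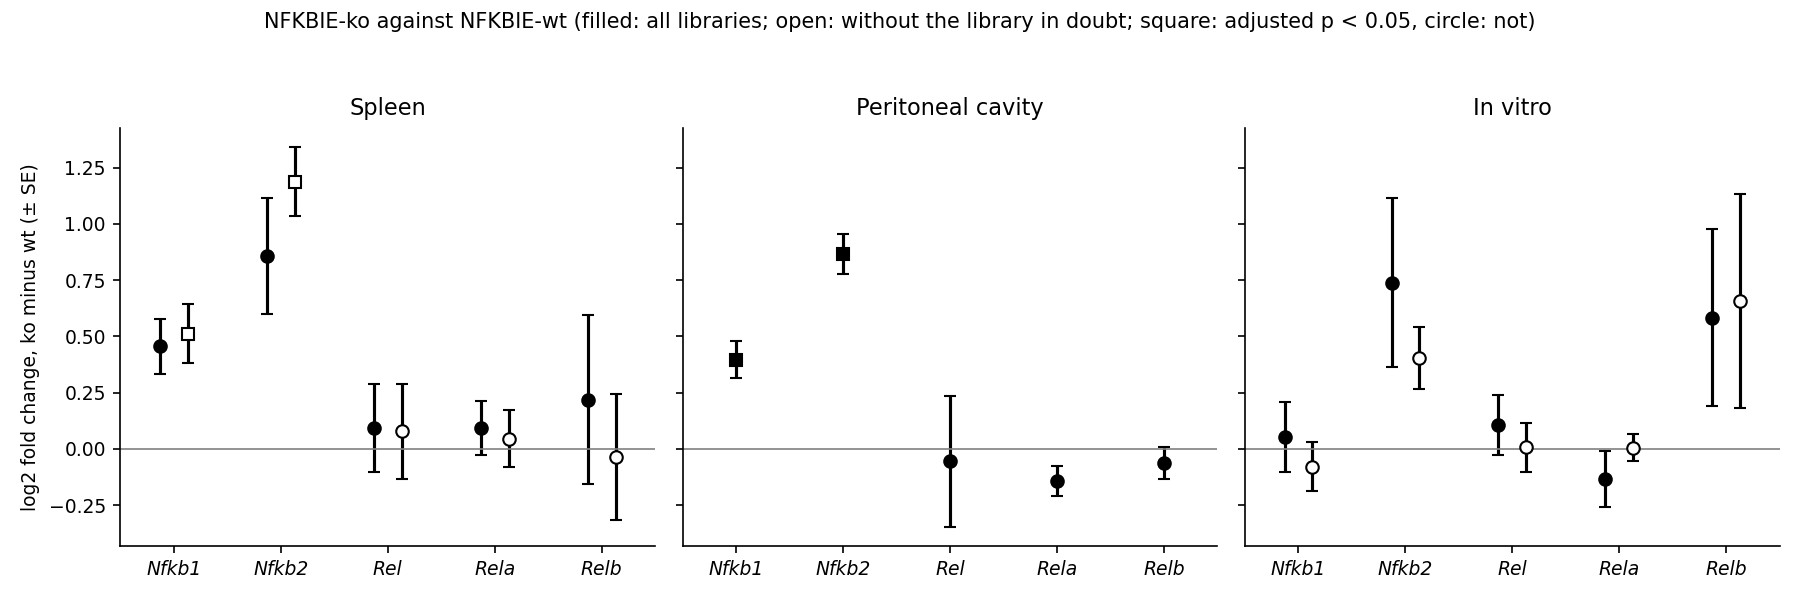
Log2 fold change of each subunit gene, NFKBIE-ko minus NFKBIE-wt, with its SE, in the spleen, PC and in vitro; filled symbols use all libraries, open symbols leave out the library in doubt, and squares have an adjusted p below 0.05. Nfkb2 and Nfkb1 are squares in the PC, and in the spleen only without wt replicate 4.

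Whether the effect of genotype differed between compartments was tested directly in a fit of all 22 libraries, in which comparisons that use a compartment share its libraries. None of the 5 members was called in any of the 3 differences, where 4.90% (spleen minus PC), 0.443% (spleen minus in vitro) and 4.90% (PC minus in vitro) of 13538 genes were. Without both libraries in doubt these shares were 8.23%, 0.938% and 6.10%, again with no member called. The Nfkb2 effect exceeded its PC value in the spleen by -0.01 ± 0.37 log2 units (edgeR adjusted p = 0.992), and by 0.33 ± 0.17 (adjusted p = 0.256) without both libraries in doubt. Between the spleen and the cultures the effects differed by 0.12 ± 0.39 for Nfkb2 (edgeR adjusted p = 0.93) and 0.80 ± 0.20 (adjusted p = 0.062) without both. For Nfkb1 this difference was 0.41 ± 0.18 (edgeR adjusted p = 0.261) and 0.60 ± 0.16 (adjusted p = 0.0836). Between the PC and the cultures the effects differed by 0.35 ± 0.18 for Nfkb1 (edgeR adjusted p = 0.278) and 0.48 ± 0.16 (adjusted p = 0.0828). At an unadjusted p below 0.05 edgeR had 1 member, Nfkb1 in the spleen minus in vitro, and DESeq2 called 0 in each difference. The share of all genes at that threshold is not given here.

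Within a library the ratio of the 2 precursor genes can be compared between groups without a scaling between libraries. The ratio of Nfkb2 to Nfkb1 CPM was 0.906 ± 0.0899 (SD, n = 4) in the wt and 1.25 ± 0.0269 in the ko PC, and 1.06 ± 0.337 in the wt and 1.41 ± 0.130 in the ko spleens. In vitro it was 1.17 ± 0.399 in the wt and 1.97 ± 0.0194 in the ko cultures (n = 3). In the PC and in vitro the ratios of the genotypes did not overlap. In the spleens wt replicate 4, at 1.56, lay in the ko range of 1.26 to 1.57, and the other 3 wt spleens, at 0.832 to 0.917, lay below it. The low wt culture was replicate 3, and the other 2 stood at 1.35 and 1.45. CPM are not divided by transcript length, so a ratio above 1 does not mean that Nfkb2 mRNA was the more abundant. In TPM the mean ratio was 0.523 in the wt and 0.743 in the ko PC, and 0.644 in the wt and 0.847 in the ko spleens. In the cultures it was 0.718 in wt and 1.23 in ko. These are descriptions with no test, since both genes were compared above.

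The transcripts were examined to see which forms carried the rise. Over all libraries Nfkb2-201 held 58.7% of the counts of its gene, Nfkb2-202 27.1% and Nfkb2-206 9.18%. Nfkb1-206 held 40.6%, Nfkb1-201 40.1%, Nfkb1-203 8.25% and the retained-intron form Nfkb1-202 7.32%. Relb-202 held 54.6%, Relb-201 29.7% and Relb-205 10.2%. Rela-201 held 87.2% and the retained-intron form Rela-203 9.31%, and Rel-201 was the only form listed for Rel. Of the 33 listed, 20 were tested in the PC, of which 5 were called higher and 1 lower, against 7.89% and 5.07% of 34098 transcripts. Nfkb2-202, from the inner start with the κB match printed above, stood at 25.9, 32.2, 28.8 and 35.6 CPM in the wt and at 78.2, 69.98, 72.2 and 63.3 CPM in the ko PC (log2 fold change 1.18 ± 0.11, edgeR adjusted p = 0.00056). Nfkb2-201, from the outer start without one, stood at 65.4, 78.4, 61.9 and 75.5 CPM in wt and at 131, 123, 131 and 124 CPM in ko (log2 fold change 0.82 ± 0.08, edgeR adjusted p = 0.000812). Both forms rose without overlap of the genotypes, so the rise was seen for both starts. The 2 forms share 6253 bases, and 501 bases of Nfkb2-201 and 258 of Nfkb2-202 tell them apart. The share of Nfkb2-202 in the counts of its gene was 26.4% ± 2.10 (SD, n = 4) in the wt and 31.5% ± 0.579 in the ko PC.
Nfkb2-206, a shorter form that begins with Nfkb2-201, went from 8.78 to 12.2 CPM in wt to 14.7 to 21.9 CPM in ko (log2 fold change 0.69 ± 0.19, edgeR adjusted p = 0.0458), a call that was lost when any library but wt PC replicate 2 was left out (adjusted p = 0.0693 to 0.119). Nfkb1-201, the canonical form, stood at 46.4, 45.3, 48.3 and 48.2 CPM in the wt and at 73.6, 78.0, 81.6 and 80.3 CPM in the ko PC (log2 fold change 0.70 ± 0.06, edgeR adjusted p = 0.000319). Nfkb1-206, which begins at an inner start and shares 3775 of its 3782 bases with Nfkb1-201, had 42.6 to 57.0 CPM in wt and 58.6 to 87.0 CPM in ko, which did not overlap but was not called (log2 fold change 0.42 ± 0.17, edgeR adjusted p = 0.152). Nfkb1-203, Nfkb1-202, Rel-201, Rela-201, Rela-203 and Relb-205 were not called in any compartment.

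Relb gave no difference as a gene in the PC but its 2 main forms went opposite ways. They differ by exon 3 of Relb-202, which has 9 bases of coding sequence (chromosome 7, 19356851 to 19356859, minus strand) and is printed here in capitals between 10 bases of transcript on each side.
Relb-202: aggaccacagATGAATTGGaaatcatcga
Relb-202 stood at 27.8, 31.7, 24.5 and 25.9 CPM in the wt and at 38.4, 37.7, 41.0 and 38.1 CPM in the ko PC (log2 fold change 0.46 ± 0.10, edgeR adjusted p = 0.0161, and 0.41, adjusted p = 0.0581, without ko PC replicate 3). Relb-201, which lacks the exon, stood at 10.9, 10.7, 12.4 and 14.2 CPM in wt and at 6.46, 7.24, 6.12 and 8.59 CPM in ko (log2 fold change -0.80 ± 0.16, edgeR adjusted p = 0.012). Neither overlapped between the genotypes. The share of Relb-202 was 55.8% ± 3.49 in the wt and 77.2% ± 2.09 in the ko PC (SD, n = 4). The estimate rests on reads that reach these 9 bases, since the other 3385 bases are shared. In 3 other libraries Relb-202 was listed at 0, namely wt spleen replicate 4, ko spleen replicate 3 and wt in vitro replicate 1, each of which also had the lowest Relb level of its group. The retained-intron form Relb-205 held 14.9% ± 1.27 of the counts in the wt and 5.31% ± 4.42 in the ko PC. When the transcripts annotated as protein coding alone were summed, the value of Relb in the PC turned from -0.06 to 0.11 on the log2 scale (edgeR adjusted p = 0.207).

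**Figure D5:**
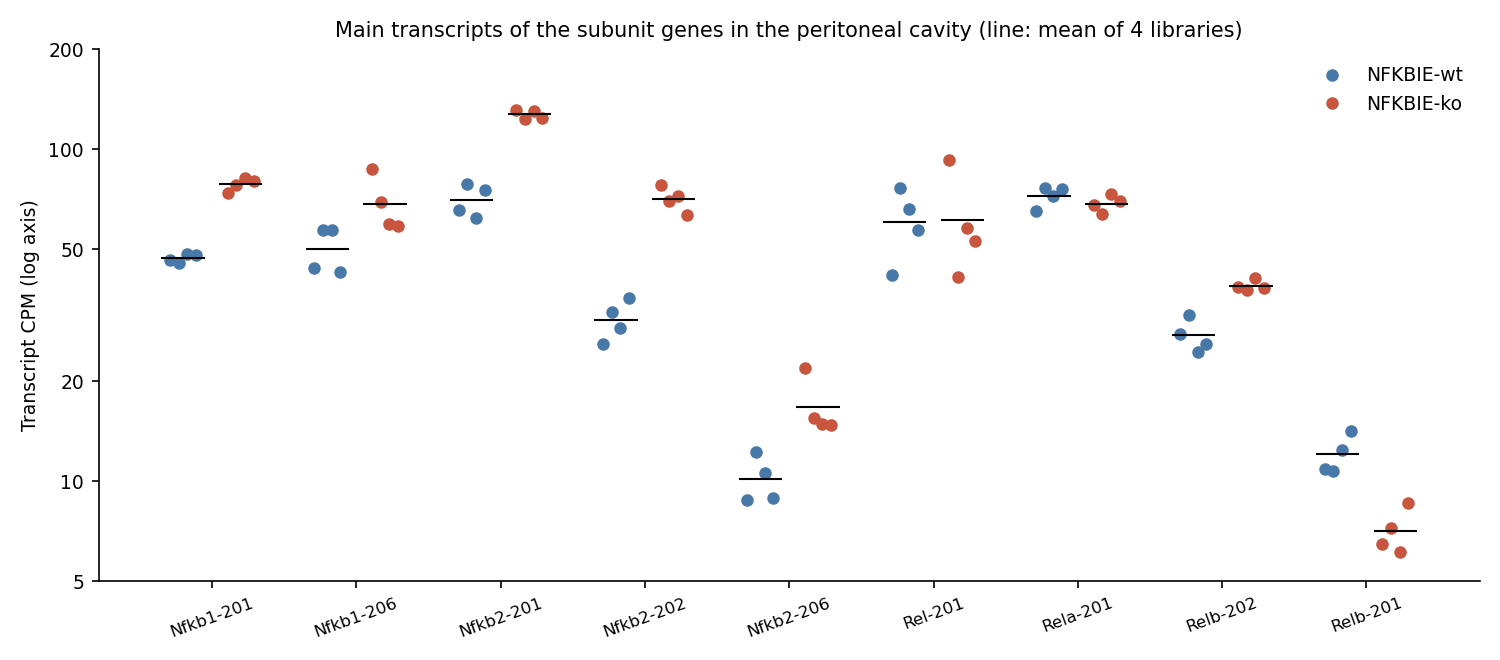
Level of the main transcripts of the 5 subunit genes in the PC (CPM, log axis), NFKBIE-wt in blue and NFKBIE-ko in red, 4 libraries each with a line at the mean. The 3 forms of Nfkb2 and Nfkb1-201 are higher in every ko library, and Relb-202 and Relb-201 go opposite ways.

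In the spleen 23 of the 33 transcripts were tested and none was called, against 0.153% of 33308 called higher and 0.201% lower. Without wt replicate 4 only Nfkb2-202 was called, where 0.411% of transcripts were called higher. Its CPM were 32.1, 33.6, 37.0 and 75.4 in the wt and 91.3, 82.5, 92.7 and 80.8 in the ko spleens, with a log2 fold change of 0.97 ± 0.28 (edgeR adjusted p = 0.223) with all libraries and 1.33 ± 0.11 (adjusted p = 0.00939) without replicate 4. Nfkb2-201 had a log2 fold change of 0.92 ± 0.33 (edgeR adjusted p = 0.328), Nfkb2-206 of 0.91 ± 0.33 and Nfkb1-201 of 0.55 ± 0.18. Without replicate 4 these were 1.20 ± 0.29 (edgeR adjusted p = 0.125), 1.15 ± 0.32 (adjusted p = 0.18) and 0.59 ± 0.20 (adjusted p = 0.245). In vitro 20 transcripts were tested and none was called, against 0.00% of 33361, and the values were 0.67 ± 0.38 for Nfkb2-201, 0.82 ± 0.46 for Nfkb2-202 and 0.77 ± 0.33 for Nfkb2-206 on the log2 scale. Without wt replicate 3 they were 0.34 ± 0.15, 0.45 ± 0.24 and 0.48 ± 0.16, and none was called. At an unadjusted p below 0.05 edgeR had 6 of the spleen transcripts, all of Nfkb2 or Nfkb1, and 1 in vitro, Nfkb1-202. DESeq2 called 1 in the spleen, Nfkb2-202, and 0 in vitro. The shares of all transcripts at that threshold and with DESeq2 are not given here, so these counts are not read as a result about the members.

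Rel was called between compartments and not between genotypes. The spleen and PC libraries of a genotype came from the same group of recipients and may share mice, and the sources used here do not tie libraries to mice, so the fits treat them as separate samples. In both genotypes Rel mRNA was lower in the PC than in the spleen or in vitro. In the wt libraries Rel was higher in the spleen than in the PC by 1.08 ± 0.24 on the log2 scale (edgeR adjusted p = 0.00176, and 1.08 ± 0.25, adjusted p = 0.00274, without the 2 libraries in doubt). In the ko libraries Rel was higher by 1.23 ± 0.24 (edgeR adjusted p = 0.000282). No spleen library had less than 90.5 CPM, while 7 of the 8 PC libraries had 78.6 CPM or less and the other, ko PC replicate 1, had 93.0 CPM. Against the cultures the PC was lower by -0.93 ± 0.25 in wt (edgeR adjusted p = 0.00854, and -0.99 ± 0.28, adjusted p = 0.00893, without the libraries in doubt) and by -1.09 ± 0.25 in ko (adjusted p = 0.0016). The spleen and the cultures did not separate, at 0.15 ± 0.25 in wt (0.09 ± 0.31 without the libraries in doubt) and 0.14 ± 0.25 in ko.

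The precursor genes were also called between compartments. Nfkb2 was higher in the spleen than in the PC by 0.69 ± 0.26 in wt (edgeR adjusted p = 0.0443) and by 0.68 ± 0.26 in ko (adjusted p = 0.0349), and the wt value fell to 0.35 ± 0.13 (adjusted p = 0.0339) without the 2 libraries in doubt. The call of Nfkb2 in wt was lost when wt spleen replicate 4 alone was left out (0.37, edgeR adjusted p = 0.232), and also without wt spleen replicate 3 or any 1 of the wt PC libraries (0.65 to 0.75, adjusted p = 0.0536 to 0.107), with the size factors of DESeq2 (0.64, edgeR adjusted p = 0.0632) and in the fit of the 2 groups alone (0.66, adjusted p = 0.0632). In ko it was lost when any of ko spleen replicates 1, 3 and 4 or ko PC replicates 2, 3 and 4 was left out (0.60 to 0.65, adjusted p = 0.0694 to 0.10). The 2 libraries in doubt are wt but enter the spread of the same fit. Without them the ko value was 0.69 ± 0.12 (edgeR adjusted p = 7.4e-05). Nfkb1 was higher in the spleen by 0.45 ± 0.12 in wt (edgeR adjusted p = 0.00565, and 0.38 ± 0.10, adjusted p = 0.00814, without the libraries in doubt) and by 0.50 ± 0.12 in ko (adjusted p = 0.00133). Thus 3 of the 5 members were called between spleen and PC in each genotype, against 35.5% of 13538 genes in wt (38.9% without the libraries in doubt) and 51.2% in ko. The contrasts of 1 genotype share libraries and are not independent.
Against the cultures the wt PC had lower Nfkb2 by -1.03 ± 0.28 (edgeR adjusted p = 0.0078) and lower Nfkb1 by -0.60 ± 0.12 (adjusted p = 0.00134), where 34.1% of genes were called. Without wt in vitro replicate 2 the value of Nfkb2 was -0.67 (edgeR adjusted p = 0.0824), and in the fit of the 2 groups alone -0.99 (adjusted p = 0.0667). Without both libraries in doubt these became -1.33 ± 0.14 and -0.69 ± 0.12, Rela was also called at 0.36 ± 0.10 (edgeR adjusted p = 0.00925), and 42.9% of genes were called. In the ko libraries Nfkb2 was lower in the PC by -0.90 ± 0.28 (edgeR adjusted p = 0.0119), while Nfkb1 was not called (-0.24 ± 0.12, adjusted p = 0.115), and 48.0% of genes were called.
Between the spleen and the cultures the wt libraries gave 0.00% of genes called and no member (0 of 5 at an unadjusted p below 0.05 with edgeR and 0 called with DESeq2), and without both libraries in doubt 26.2% of genes, with Nfkb2 lower in the spleen by -0.98 ± 0.15 (edgeR adjusted p = 0.000121) and Rela higher by 0.31 ± 0.11 (adjusted p = 0.04). In the ko libraries Rela was called higher in the spleen, by 0.32 ± 0.11 (edgeR adjusted p = 0.0265), against 30.3% of genes. The call was lost without ko spleen replicate 2 (0.23, edgeR adjusted p = 0.0767), without ko spleen replicate 4 and without any 1 of the cultures.

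Ordered by their mean CPM, the 6 groups ranked differently for each member. For Nfkb2 the order from low to high was wt PC (118), wt spleen (190.1), ko PC (216), wt in vitro (241), ko spleen (346) and ko in vitro (402), and the ranges of neighbours overlapped from the wt spleen to the ko spleen. Without the libraries in doubt the same order held with 152 CPM for the wt spleen and 305 CPM for the wt cultures, and the wt cultures and ko spleens were the only neighbours that overlapped. For Nfkb1 the ends of the order were the wt PC (130.2 CPM) and the ko spleen (244 CPM), and the 4 groups between them overlapped along the order. The highest wt culture (241 CPM) lay inside the ko spleen range (214 to 266 CPM). Without the libraries in doubt the order was wt PC, wt spleen (171 CPM), ko PC (173), ko in vitro (204), wt in vitro (217) and ko spleen. There the wt spleens overlapped with the ko PC, the ko cultures with the wt cultures, and the wt cultures with the ko spleens. For Rel the 2 PC groups (59.3 and 61.3 CPM) lay below the other 4 (117 to 139 CPM), and neighbours overlapped within each of these sets. Rela ran only from 65.1 CPM in the ko cultures to 81.5 CPM in the ko spleens, and Relb from 31.99 CPM in the wt cultures to 50.01 CPM in the wt PC, with overlap between all neighbours in both orders. Without the libraries in doubt the wt cultures (65.1 CPM) lay below the ko PC, and the ko PC below the wt spleens (79.0 CPM), without overlap for Rela.

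The other genes of the pathway were counted from fixed lists. Of 9 genes of the non-canonical pathway, 4 were called higher and 1 lower in the PC, where 22.5% of all genes tested were called higher and 20.9% lower. Cd40 encodes a receptor whose ligand, per the study, is reported to act selectively through the non-canonical pathway in murine B cells. Cd40 stood at 11.5 ± 2.56 CPM in the wt and 24.2 ± 2.93 CPM in the ko PC (SD, n = 4). The log2 fold change was 1.06 ± 0.16 (edgeR adjusted p = 0.000416). Tnfrsf13c, the BAFF receptor, rose by 0.53 ± 0.06 (edgeR adjusted p = 5.2e-05), and Map3k14, the kinase NIK, fell from 93.0 ± 6.20 to 52.1 ± 2.17 CPM (log2 fold change -0.85 ± 0.07, edgeR adjusted p = 6.6e-06). The median over the list was 0.14 on the log2 scale, beside -0.01 over all genes tested. In the spleen Cd40 alone of the 9 was called (1.36 ± 0.32, edgeR adjusted p = 0.0409, and 1.72 ± 0.24, adjusted p = 0.00293, without wt replicate 4), against 2.32% of all genes higher and 3.16% lower.

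Of 12 canonical genes, 2 were called higher and 4 lower in the PC, against the same 22.5% and 20.9% of all genes, with a median of -0.08. Malt1, the protease of the complex that links the B-cell receptor to IKK, rose from 143 ± 19.6 to 288 ± 47.1 CPM (log2 fold change 0.99 ± 0.12, edgeR adjusted p = 0.000134). Tab3, an adaptor of the kinase TAK1, fell by 0.42 on the log2 scale (SE 0.12, edgeR adjusted p = 0.0177). None of the 12 was called in the spleen or in vitro with all libraries. Without wt spleen replicate 4, Malt1 was called higher (0.78 ± 0.20, edgeR adjusted p = 0.0354) and Traf6, a ubiquitin ligase, lower (-0.46 ± 0.12, adjusted p = 0.0425) in the spleen, against 5.47% of all genes higher and 6.69% lower.
Of 6 IκB genes, 1 was called higher and 2 lower in the PC (22.5% and 20.9% of all genes), with a median of -0.33. Nfkbib rose by 0.34 ± 0.07 (edgeR adjusted p = 0.00205), Nfkbie fell as given above and Nfkbia fell by 0.34 on the log2 scale (SE 0.13, adjusted p = 0.047). In the spleen Nfkbid, an atypical nuclear IκB, was called higher (0.77 ± 0.18, edgeR adjusted p = 0.0382, and 0.83 ± 0.19, adjusted p = 0.0256, without wt replicate 4). Without that library Nfkbiz, another atypical IκB, was also called, as lower (-0.93 ± 0.21, edgeR adjusted p = 0.0232). Of 5 genes of feedback regulators, Tnip1 (0.35 ± 0.07, edgeR adjusted p = 0.00142) and Cyld (0.26 ± 0.06, adjusted p = 0.00529) were called higher and Tnip2 lower (-0.55 ± 0.13, adjusted p = 0.00506) in the PC, again beside 22.5% and 20.9% of all genes. Tnip2 was also called lower in the spleen (-0.65 ± 0.16, edgeR adjusted p = 0.0497, and -0.66 ± 0.17, adjusted p = 0.0393, without wt replicate 4). Without that library Tnfaip3, which encodes the feedback inhibitor A20, was called higher (0.77 ± 0.16, edgeR adjusted p = 0.0149). In vitro no gene of the 4 lists was called.

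The genes whose levels followed each member most closely over the 22 libraries were found by the root mean square difference (RMSD) of centred log2 CPM among 8665 candidate genes. For Nfkb2, whose own spread was 0.68, the nearest were Plekha8 (0.22), Ticam2 (0.23) and Icam1 (0.24). For Nfkb1, with a spread of 0.32, they were Ogfod1 (0.11), Wdr3 (0.14) and Tank (0.15). For Rel, with a spread of 0.63, they were Ddx11, Zranb3 and Ccp110, all at 0.28. For Rela, with a spread of 0.15, they were Usp21 (0.07), Ddx50 (0.09) and Trmt1 (0.10). For Relb, with a spread of 0.56, they were Stk17b (0.37), Haao (0.38) and Pstpip1 (0.39), so that no gene lay as near to Relb as to the others in proportion to its spread. The points share libraries and groups, and the values are a description.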

How the data were processed

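RNA-seq was measured in 22 libraries of 6 groups. Per the labels and the study's methods, the authors quantified reads with Salmon 1.8 against GRCm39, and the deposited values are estimated counts per transcript, without normalization. The table lists 62492 transcripts that are above 0 in at least 5 libraries, and 69.5% of its values are not whole. Of these transcripts 62147 were matched to genes in GENCODE M39, and the others held 0.619% of the counts. Library totals were 24036763 to 26581304.

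Counts were summed per gene, rounded and tested with edgeR 4.0.16 (quasi-likelihood, robust, TMM, filterByExpr) in R 4.3.3, with Benjamini-Hochberg adjustment over all features and calls at an adjusted p below 0.05. Genotypes were compared within a compartment, and compartments and differences of the genotype effect in a fit of all 22 libraries. CPM are TMM-scaled counts, and TPM were computed from counts and annotated lengths. DESeq2 1.42.0, other size factors and filters, a block and left-out libraries were alternatives. The test was checked on counts simulated with the same dispersion for every feature. It was below that of the transcript fits, whose common biological coefficient of variation was 0.491 to 0.588. The check therefore does not cover the spread of the transcripts. All pairs of replicates differed by more than counting noise (chi-square per degree of freedom 6.85 to 199.9). Per the study's methods the cultures of a genotype were kept separately, and spleen and PC libraries may share mice, which the sources used here do not tie to libraries. Replicate numbers showed no strong pairing. Between genotypes the correlation of deviations of same-numbered libraries was -0.246 to 0.149 in the spleen, -0.110 to -0.00671 in the PC and -0.0182 to 0.0686 in vitro. Between spleen and PC it was -0.144 to 0.0709 in wt and -0.0395 to 0.0864 in ko. In ko, replicates 1, 3 and 4 (0.0864, 0.0655 and 0.0839) exceeded their highest correlation with another number (0.0138, 0.0543 and -0.00439). Replicate 2 did not (-0.0395 against 0.0554). A weak pairing of these libraries is therefore not excluded.

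The members, lists and markers were chosen with earlier results of these data known. Named were all members, transcripts with at least 5% of the counts of their gene or called, the 3 called genes of each list with the smallest adjusted p, and the 3 genes nearest to each member in log2 CPM among genes with a mean of at least 10 CPM. Some items that this rule names are not reported here.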

Additional observations from a re-analysis of the deposited data

Results flagged for a closer look

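Of the 20 groups of 4 libraries checked (5 members in 4 in vivo groups), 2 held a library whose gap to its nearest neighbour was above Dixon's critical ratio, and chance gives about 1 in 20 groups. In the ko spleens Nfkb2 stood at 269 CPM in replicate 2 and at 367 to 379.7 CPM in the other 3, with a gap of 0.885 of the range. The same library had 54.2 CPM of Nfkbie, where the other ko spleens had 109 to 120.3 CPM. In the wt spleens Rela stood at 67.5 CPM in replicate 4, the library that went against its compartment label, and at 78.0 to 79.7 CPM in the other 3, with a gap of 0.859 of the range.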

How the results depend on the processing

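In the spleen 2 member genes were called higher by genotype with DESeq2 and 2 in the fit of all 22 samples, against 0 with edgeR on the spleen alone, and 0 to 2 when single libraries were left out. Of the spleen transcripts, DESeq2 called 1, and leave-outs gave 0 to 1. In the PC a log2 fold change beyond 1 left 0 genes, and 1 transcript higher and 0 lower. The fit of all 22 samples called 2 PC transcripts higher and 0 lower, with Relb-202 at an adjusted p of 0.911, and leave-outs gave 3 to 5 higher. Replicate numbers showed no strong pairing of the libraries. With the replicate number as a block, PC values were 0.86 for Nfkb2 (edgeR adjusted p = 0.00105) and 0.40 for Nfkb1 (adjusted p = 0.0123), and 4 PC transcripts were called higher and 0 lower. The block gave 1 member called between wt spleen and PC (Rel, with adjusted p of 0.0695 for Nfkb1 and 0.101 for Nfkb2 by edgeR), 0 between wt PC and in vitro and 0 between ko spleen and in vitro. The shares of all features called with DESeq2, with the block and in the genotype fit of all 22 samples are not given here. The member counts in these settings are therefore not set against a background.

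Without both libraries in doubt, 2 members were called between wt spleen and in vitro, where 26.2% of 13760 genes were called. Between ko spleen and in vitro 2 members were called, and the share of all genes in that setting is not given here. The fit of the 2 groups alone called 2 between ko spleen and in vitro and 4 between ko PC and in vitro. In the fit of all 22 libraries 30.3% and 48.0% of genes were called in these comparisons, and the shares in the fits of 2 groups are not given here. Leave-outs gave 0 to 1 between ko spleen and in vitro.

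Signs turned only for values that were not called. The value of Relb in the PC was 0.11 with protein-coding transcripts alone, and the difference of the Nfkb2 effect, spleen minus PC, was 0.33 without both libraries in doubt. Leaving out single libraries gave -0.000309 to 0.15 for Rela and -0.036 to 0.55 for Relb in the spleen, -0.36 to 0.11 for Rel in the PC, and -0.079 to 0.23 for Nfkb1 and -0.21 to 0.0050 for Rela in vitro. For Nfkb2 it gave -0.68 to 0.026 between wt spleen and in vitro, and for the differences of its genotype effect -0.17 to 0.31 (spleen minus PC), -0.24 to 0.47 (spleen minus in vitro) and -0.23 to 0.48 (PC minus in vitro). For Nfkb1 the difference spleen minus PC was -0.051 to 0.11. The cause of these changes was not tested. With 3 or 4 libraries a group, small differences of scattered members such as Rel and Relb could not be resolved.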
